A study of Mus musculus with 6 samples.

Results

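Myeloid C-type lectin receptors were followed through the transcriptome of leukemia-initiating cells (LICs). The group holds 10 genes, chosen by symbol from the 27179 genes of the deposited table: Clec4a1, Clec4a2, Clec4a3, Clec4d, Clec4e, Clec4n, Clec5a, Clec7a, Clec10a and Clec12a. All 10 were listed, and 9 had a mean of at least 1 RPKM (read number relative to gene length and to library size) over the libraries and entered the test. The libraries came from YFP+Mac-1+c-Kit+ LICs sorted from the bone marrow of a mouse model of acute myeloid leukemia, in which Lin- fetal liver cells carrying a retrovirus for the human fusion oncogene MLL-AF9 and YFP are transplanted into lethally irradiated C57BL/6 mice. There were 3 libraries labelled WT (Asic3+/+) and 3 labelled Asic3-null (Asic3-/-, deleted for the acid-sensing ion channel ASIC3), all of strain C57BL/6 and given as 8 weeks old. Both groups carried MLL-AF9 and passed the same gate, so the comparison is within leukemia cells of 1 oncogene and says nothing of normal marrow. The labels do not say whether the libraries of a group came from separate mice, so p-values measure only the spread between these libraries. In bulk RNA, fewer cells that carry a receptor and less RNA per cell cannot be told apart.

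C-type lectin receptors are surface proteins with which monocytes, macrophages, dendritic cells and neutrophils bind sugars and other ligands on microbes and on damaged cells. The activating receptors reach the kinase Syk, either through adaptors with an immunoreceptor tyrosine-based activation motif (ITAM), FcRγ and DAP12, or through a similar motif in their own tail, and from Syk the signal runs through CARD9 to NF-κB and cytokine genes. The inhibitory receptors carry an inhibitory motif (ITIM) that recruits the phosphatases SHP-1 and SHP-2. Most of these receptors appear as myeloid precursors mature, and human CLEC12A is known as an antigen of leukemic stem cells.

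The library size recovered from the RPKM values was 1947168 to 2381861 reads, so that a single read in 2 kb of transcript stood for 0.21 to 0.257 RPKM. Asic3 itself ran against the labels, with 1.22, 1.85 and 0.435 RPKM in the libraries labelled WT and 9.12, 4.11 and 6.58 RPKM in those labelled Asic3-null, so group names below are those of the labels. Asic3 alone does not settle whether the labels were exchanged, which would turn every direction given here. By qRT-PCR the paper reports more Meis1 and less Spi1 and Cebpa mRNA in Asic3-null LICs. Under the Asic3-null label their log2 fold changes here were 0.91, -0.38 and -0.31 (limma adjusted p = 0.0367, 0.136 and 0.344). An exchange of the labels was not tested. Xist, chosen after its values were seen, lay at 0.0236 to 0.0573 RPKM under the WT label and 46.5 to 71.9 RPKM under the Asic3-null label, so genotype and sex of the cells cannot be told apart. Itgam, the gene of the Mac-1 alpha chain that the sort relied on, had 55.1 to 89.5 RPKM under the WT label and 12.3 to 16.9 RPKM under the Asic3-null label.

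Markers of maturing myeloid cells moved with the labels, in a table where limma called 2.82% of all tested genes lower and 0.523% higher under the Asic3-null label. Of 12 mature neutrophil markers, 10 were tested and all 10 were lower under the Asic3-null label, with sums of 3899 to 4341 RPKM under the WT label and 239 to 375 RPKM under the Asic3-null label, while Ly6g was at 0 in 5 of the 6 libraries. Of 12 monocyte and macrophage markers, 9 were tested and 5 were lower, with sums of 1834 to 2018 and 1248 to 1452 RPKM. Among 9 progenitor markers, Meis1 and Gata2 were higher and Elane was lower, with sums of 4391 to 6576 and 4060 to 5191 RPKM, but these calls held in only 7, 6 and 6 of 15 alternatives. Of 10 dendritic cell markers 3 were tested and H2-Ab1 was higher, a call that held in 8 of 15 alternatives, with sums of 143 to 200 and 199 to 242 RPKM. Most of these sums was Flt3, at 123 to 183 and 175 to 208 RPKM, which did not pass (limma adjusted p = 0.358). Cd74, the other tested gene, had a log2 fold change of -0.84 (limma adjusted p = 0.501). T cell markers summed to at most 2.10 RPKM with Cd3e, Cd4 and Cd8a at 0, NK cell markers to at most 0.138 RPKM with 4 of 5 at 0, and the 6 erythroid markers found to at most 10.3 RPKM. Of the B cell markers Ms4a1 was at 0, and Cd79b, the 1 tested, had 37.3 to 49.0 RPKM. The part of these markers in the lectin results was not tested.

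Clec12a was by far the most abundant of the receptors. In the libraries labelled WT the order of mean RPKM was Clec12a (347 ± 19.4), Clec4a2 (35.6 ± 9.41), Clec7a (30.8 ± 9.34), Clec4e (16.7 ± 4.56), Clec4d (6.71 ± 2.92), Clec5a (5.97 ± 3.34), Clec4a1 (5.95 ± 0.733), Clec4a3 (5.27 ± 0.388), Clec10a (1.99 ± 1.46) and Clec4n (1.18 ± 1.13; SD, n = 3 for each). Steps without overlap between the libraries of neighbours lay after Clec12a, after Clec4e and after Clec4a3. Clec4a2, Clec7a and Clec4e overlapped, each with its neighbour in the order, as did the 4 genes from Clec4d to Clec4a3, and Clec10a with Clec4n. Under the Asic3-null label the order became Clec12a, Clec4a2, Clec7a, Clec4d, Clec4e, Clec5a, Clec10a, Clec4a3, Clec4a1 and Clec4n. Here the steps without overlap lay after Clec12a, after Clec7a, after Clec4e and after Clec4a1. Clec4d stood above Clec4e, with which it overlapped, and Clec4a1 and Clec4a3 dropped below Clec10a.

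**Figure D1:**
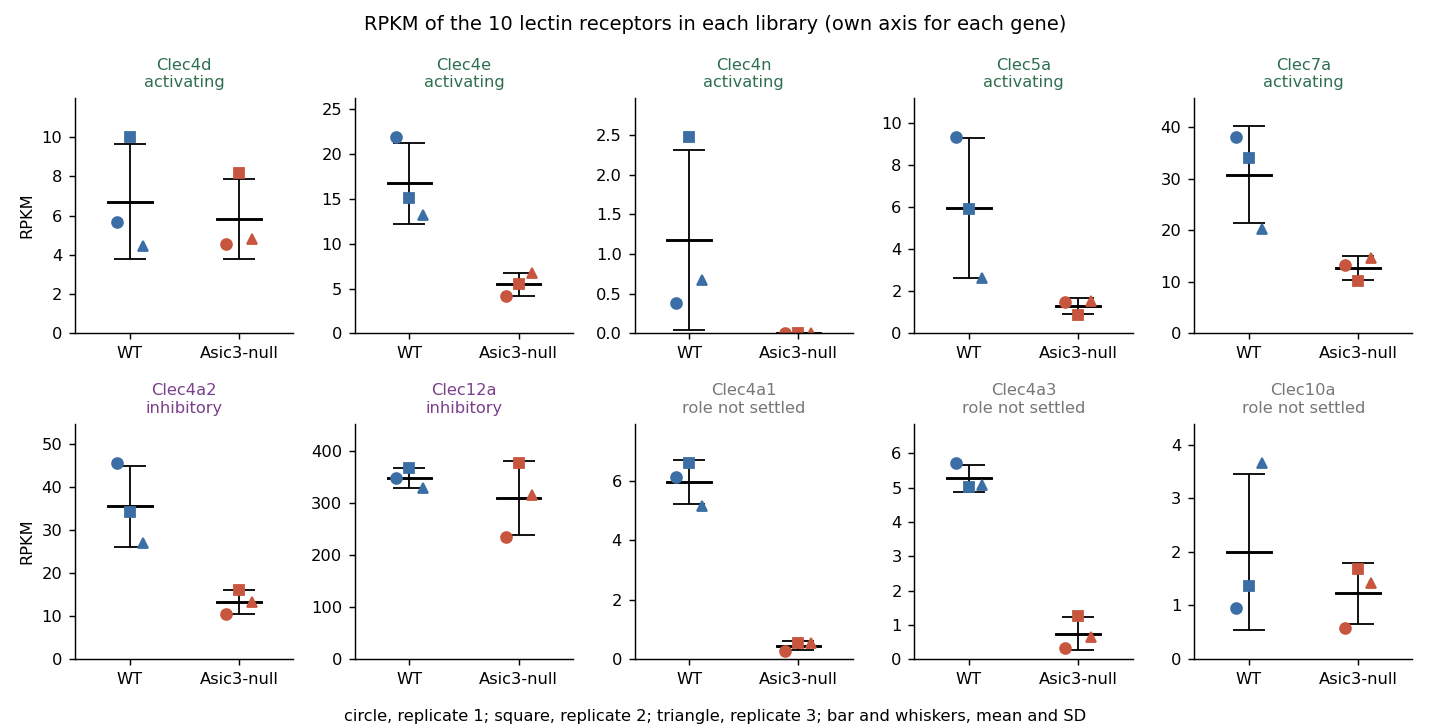
RPKM of each of the 10 receptors by library, with 1 panel and 1 axis from 0 for each gene. Points are the 3 libraries of each label, and the bar with whiskers is their mean and SD. In 7 panels every point under the Asic3-null label lies below every point under the WT label, and in those of Clec4d, Clec12a and Clec10a the groups overlap.

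Of the 9 tested receptors, 5 fell under the Asic3-null label and none rose (limma, Benjamini-Hochberg adjusted p under 0.05 over 12037 genes). Over all tested genes 2.82% were lower and 0.523% higher by this rule, 3.35% in either direction. The 5 were Clec4a1, Clec4a3, Clec4e, Clec4a2 and Clec7a. Clec5a, Clec4d, Clec12a and Clec10a did not pass. Counting overlap in place of the fit, 6 of the 9 tested receptors had every library labelled Asic3-null below every library labelled WT, where 11.4% of all tested genes did so, and Clec4n, which was under the filter, did too. All 9 tested receptors had a fitted log2 fold change below 0, as did 45.5% of all tested genes. On the scale of RPKM + 1 these fold changes had a median of -1.35 over the 9 tested receptors and 0.03 over all tested genes. Clec4a1 and Clec4a3 had a mean below 1 RPKM under the Asic3-null label and passed the filter only through the libraries labelled WT. The count of 5 dropped to 2 without WT replicate 1, WT replicate 2 or Asic3-null replicate 1, and to 3 without Asic3-null replicate 3, while Clec4a1 and Clec4a3 were called in all 14 alternatives in which they were tested.

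**Figure D2:**
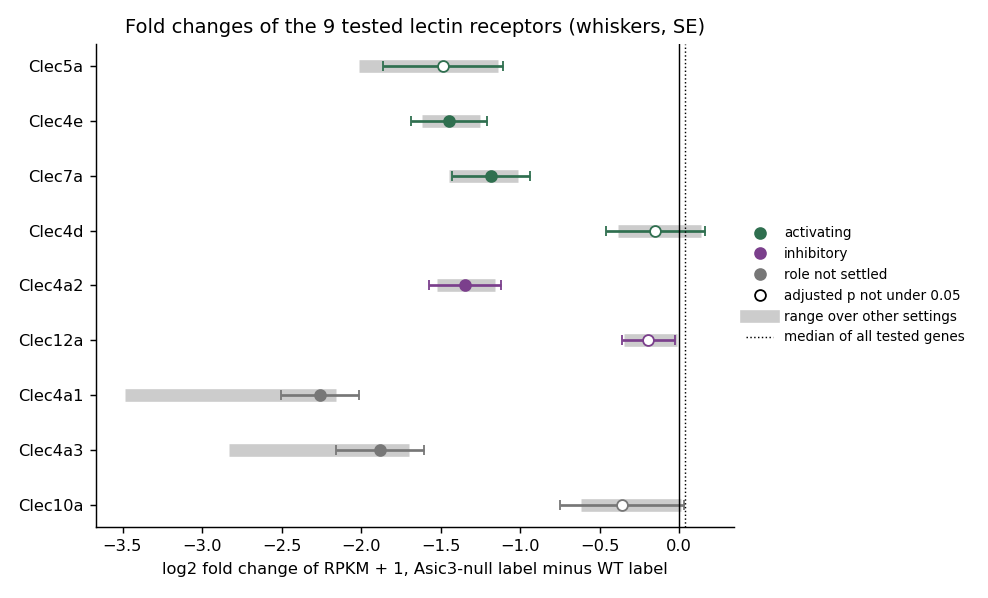
Fitted log2 fold change (Asic3-null label minus WT label, RPKM + 1) of the 9 tested receptors, grouped by role, with the standard error as whiskers and the range over the alternative settings in grey. Filled points passed an adjusted p of 0.05; the dotted line is the median of all tested genes. Clec4d, Clec12a and Clec10a lie near 0 and the other 6 between -2.26 and -1.18.

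Among the activating receptors, Clec4e and Clec7a fell. Clec4e encodes Mincle, which senses the mycobacterial cord factor and a nuclear protein of dying cells through FcRγ (chromosome 6, 123281789 to 123289871, minus strand, GRCm38). It had 21.9, 15.1 and 13.2 RPKM in the libraries labelled WT, from 116, 74 and 79 reads, and 4.11, 5.50 and 6.76 RPKM in those labelled Asic3-null, from 24, 33 and 40 reads. All 3 libraries labelled Asic3-null lay below the lowest labelled WT, at a mean 32.6% of the WT level. The log2 fold change was -1.45 (standard error 0.24, limma adjusted p = 0.0138). Over the alternatives the adjusted p of Clec4e from limma ran from 0.00393 to 0.0617 and was above 0.05 in 4 of 15, among them the fits without WT replicate 1, without WT replicate 2 and without Asic3-null replicate 1.

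Clec4d, the immediate neighbour of Clec4e, did not share this fall. It encodes MCL, a partner of Mincle that also uses FcRγ, and lies on the plus strand from 123262107 to 123275268. Its levels were 5.70, 9.99 and 4.43 RPKM under the WT label and 4.53, 8.17 and 4.78 RPKM under the Asic3-null label, from 14 to 26 reads in every library. The groups overlapped, with a log2 fold change of -0.15 (standard error 0.31, limma adjusted p = 0.855) that turned to 0.14 without WT replicate 2. Within each library, log2(RPKM + 1) of Clec4d minus that of Clec4e was -1.24 ± 0.63 under the WT label and 0.06 ± 0.46 under the Asic3-null label (SD, n = 3 each). The difference of 1.30 had no overlap between groups (two-sided exact permutation p = 0.10, which is the lower limit for 3 against 3, and 0.10 after adjustment over the 3 gene pairs compared). Each of the 3 pairs set a receptor that did not pass against one that fell. A difference between labels was thus built into the choice, and these p-values do not test whether the genes of a pair parted.

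Because some receptors moved together and neighbours did not, the 250 bases before the annotated start were searched on both strands for GAGGAA, the core of a PU.1-type site, for the longer GAGGAAGT that contains it, and for the C/EBP-type pattern TTGCNNAA. PU.1 and the C/EBP factors are the central regulators of myeloid genes. RefSeq (GRCm38.p6) gave promoters for 8 of the 10 receptors, all but Clec4n and Clec10a. Those of the neighbours Clec4d (chr6:123261857-123262106, plus strand) and Clec4e (chr6:123289872-123290121, minus strand), of Clec7a (chr6:129472786-129473035, minus strand) and of Clec4a1 (chr6:122921598-122921847, plus strand) are shown 5′ to 3′ on the strand of the gene, ending at the base before the start, as the pair that parted and 2 more receptors that fell. Capitals mark GAGGAA and TTGCNNAA on either strand.
Clec4d: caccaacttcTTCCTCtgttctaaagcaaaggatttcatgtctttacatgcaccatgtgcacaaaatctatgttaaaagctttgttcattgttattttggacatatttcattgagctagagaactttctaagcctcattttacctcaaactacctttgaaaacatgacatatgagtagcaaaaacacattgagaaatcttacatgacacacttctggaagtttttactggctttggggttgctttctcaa
Clec4e: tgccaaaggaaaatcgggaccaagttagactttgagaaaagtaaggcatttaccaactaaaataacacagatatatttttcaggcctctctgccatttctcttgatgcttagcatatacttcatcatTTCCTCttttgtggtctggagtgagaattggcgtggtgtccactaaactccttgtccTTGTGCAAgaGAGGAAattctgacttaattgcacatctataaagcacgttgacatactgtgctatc
Clec7a: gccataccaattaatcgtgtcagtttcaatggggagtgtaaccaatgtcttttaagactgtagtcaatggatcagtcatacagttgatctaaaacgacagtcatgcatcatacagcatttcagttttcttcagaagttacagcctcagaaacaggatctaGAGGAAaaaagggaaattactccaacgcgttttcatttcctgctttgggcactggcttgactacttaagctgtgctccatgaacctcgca
Clec4a1: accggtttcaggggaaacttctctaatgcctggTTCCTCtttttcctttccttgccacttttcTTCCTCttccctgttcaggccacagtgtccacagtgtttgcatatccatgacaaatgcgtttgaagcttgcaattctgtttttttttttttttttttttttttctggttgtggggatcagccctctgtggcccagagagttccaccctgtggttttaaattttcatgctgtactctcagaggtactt
GAGGAA or its complement was present in 6 of the 8 windows and in 23.0% of 27025 promoters of the same length. Counted to the first base of the match, Clec4e held it at 123 and 56 bases before the start and Clec4d only at 240 bases, while Clec7a held it at 90 bases and Clec4a1 at 217 and 187 bases. Clec5a, at 81 and 55 bases, and Clec12a, at 61 and 47 bases, held it as well, while Clec4a2 and Clec4a3 held none of the 3 patterns. Thus 3 of the 5 receptors that fell had the core, and so did Clec4d and Clec5a, which did not pass. Clec12a, which did not pass either, had it in a window that lies inside the gene. The pattern TTGCNNAA was in 2 of the 8 windows and in 9.55% of all promoters, at 66 bases in Clec4e and at 140 bases in Clec12a. None of the 8 windows held GAGGAAGT, which 2.43% of all promoters did. The RefSeq window of Clec12a (chr6:129349994-129350243) is not printed. It lies inside the span given for the gene, which starts at 129349783, and inside an exon that GENCODE M21 annotates. Its matches are thus not before that start, although they enter the counts of 6 and 2 of the 8 windows. These matches are letters in a window, not binding sites.

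Clec7a encodes Dectin-1, the receptor for fungal β-glucan, which carries its own activating motif. It lies on chromosome 6 from 129461591 to 129472785 (minus strand). It had 38.0, 34.1 and 20.2 RPKM in the libraries labelled WT and 13.3, 10.1 and 14.6 RPKM in those labelled Asic3-null, from 55 to 182 reads a library. WT replicate 3 was the lowest of its group and still above all 3 libraries labelled Asic3-null. The log2 fold change was -1.18 (standard error 0.25, limma adjusted p = 0.0373). This call was the least stable of the 5, since it failed in 8 of 15 alternatives, leaving out any library other than WT replicate 3 among them, with limma adjusted p between 0.0121 and 0.150 over all alternatives. The gene's span overlaps that of Gm45969, and the library kit does not mark strand.

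Clec5a and Clec4n, the remaining activating receptors, were low in every library. Clec5a encodes MDL-1, which signals through DAP12, and lies apart from the others on chromosome 6, from 40574898 to 40585805 (minus strand). Its levels were 9.34, 5.92 and 2.65 RPKM under the WT label and 1.47, 0.879 and 1.56 RPKM under the Asic3-null label, from 75, 44 and 24 reads against 13, 8 and 14. The groups did not overlap, but the WT libraries spread more than 3-fold and the log2 fold change of -1.49 did not pass (standard error 0.38, limma adjusted p = 0.0758). It passed in 2 of 14 alternatives, with limma adjusted p = 0.0252 without WT replicate 3 and 0.0385 with limma-voom and TMM on the recovered reads, the range over all 14 being 0.0252 to 0.218. Clec4n encodes Dectin-2, a receptor for fungal mannan that uses FcRγ (chromosome 6, 123229843 to 123247024, plus strand). It had 0.382, 2.48 and 0.679 RPKM under the WT label, from 1, 6 and 2 reads, and no read in the 3 libraries labelled Asic3-null (two-sided exact permutation p = 0.10). Set against a floor of 3 reads over the group it was at least 3.29-fold lower, and the floor covers counting error only. Fitted without a filter it did not pass (limma adjusted p = 0.224). The WT value rested largely on replicate 2.

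The inhibitory receptors divided. Clec4a2 encodes DCIR, the prototype lectin with an ITIM, and lies on chromosome 6 from 123122690 to 123143999 (plus strand). It had 45.6, 34.2 and 27.0 RPKM in the libraries labelled WT and 10.4, 16.0 and 13.3 RPKM in those labelled Asic3-null, from 63 to 251 reads a library, and the groups did not overlap. The log2 fold change was -1.35 (standard error 0.23, limma adjusted p = 0.0147). Leaving out WT replicate 1, WT replicate 2, Asic3-null replicate 1 or Asic3-null replicate 3 took the call away, and over all alternatives the limma adjusted p ran from 0.00297 to 0.0713.

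Clec12a, the other ITIM receptor, kept a high level under both labels. It encodes MICL, also called CLL-1, which binds uric acid crystals (chromosome 6, 129349783 to 129365303, plus strand). Its levels were 347, 366 and 328 RPKM under the WT label and 235, 376 and 314 RPKM under the Asic3-null label, from 1210 to 1992 reads, the deepest coverage of any of the receptors. Asic3-null replicate 2 was the highest of all 6 libraries and Asic3-null replicate 1 the lowest. The log2 fold change was -0.19 (standard error 0.17, limma adjusted p = 0.620), and in all 15 alternatives it stayed below 0 and short of the threshold, between -0.35 and -0.01. In each library log2(RPKM + 1) of Clec12a exceeded that of Clec4a2 by 3.28 ± 0.34 under the WT label and by 4.43 ± 0.05 under the Asic3-null label (SD, n = 3 each). For Clec12a minus Clec7a, at the other end of the same gene cluster, the values were 3.50 ± 0.41 and 4.49 ± 0.53. Neither difference, 1.15 and 0.99, had overlap between groups (exact permutation tests, two-sided p = 0.10 each, 0.10 after adjustment over the 3 pairs). Here too a receptor that did not pass was set against one that fell, so these p-values do not test whether the genes parted.

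Clec4a1, Clec4a3 and Clec10a were kept apart because they are not settled as activating or inhibitory. Clec4a1 and Clec4a3, also called DCIR4 and DCIR3, are relatives of Clec4a2 at the start of its gene cluster (chromosome 6, 122921848 to 122934619 and 122952515 to 122969878, both plus strand). Clec4a1 had 6.10, 6.59 and 5.15 RPKM under the WT label, from 20, 20 and 19 reads, and 0.277, 0.539 and 0.547 RPKM under the Asic3-null label, from 1, 2 and 2 reads. Its log2 fold change of -2.26 was the lowest of the receptors (standard error 0.24, limma adjusted p = 0.00182). Clec4a3 had 5.72, 5.02 and 5.08 RPKM under the WT label and 0.325, 1.26 and 0.640 RPKM under the Asic3-null label, from 13 to 16 reads against 1 to 4. Its log2 fold change was -1.88 (standard error 0.27, limma adjusted p = 0.00748). The WT libraries agreed closely for both genes, and both calls held in all 14 alternatives, although the size of the change depended on the pseudocount, with -3.48 for Clec4a1 and -2.83 for Clec4a3 at 0.1. The Clec4a genes are close relatives, and reads that fit more than 1 of them may have been split or dropped by a counting step that is not given in the sources used here.

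Clec10a encodes MGL1, a receptor for galactose-type sugars on macrophages and dendritic cells, and is the 1 receptor outside chromosome 6 (chromosome 11, 70166623 to 70170836, plus strand). It had 0.951, 1.37 and 3.66 RPKM under the WT label and 0.575, 1.68 and 1.42 RPKM under the Asic3-null label, from 2 to 13 reads. The groups overlapped, and the log2 fold change of -0.36 (standard error 0.39, limma adjusted p = 0.703) was 0.013 without WT replicate 3.

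Set side by side, the roles did not part cleanly. Of the 5 activating receptors 4 were tested and 2 fell, of the 2 inhibitory ones 1 fell, and of the 3 others 2 fell, beside 2.82% of all tested genes. The median log2 fold changes were -1.32, -0.77 and -1.88. Summed RPKM of the activating receptors was 75.3, 67.5 and 41.2 under the WT label and 23.4, 24.7 and 27.7 under the Asic3-null label, 41.2% of the WT mean and without overlap. That of the inhibitory receptors was 393, 400 and 355 under the WT label and 246, 392 and 328 under the Asic3-null label, 84.1% of the WT mean and with overlap. The log2 ratio of the activating to the inhibitory sum was -2.68 ± 0.37 under the WT label and -3.65 ± 0.31 under the Asic3-null label (SD, n = 3 each), with no overlap. This contrast rested on Clec12a, because Clec4a2 alone was at 37.3% of its WT mean, near the activating sum. Clec12a made up 72.2 to 80.0% of the summed RPKM of all 10 receptors under the WT label and 87.1 to 89.5% under the Asic3-null label. Without it, the sum of the other 9 was 82.1 to 134 RPKM under the WT label and at most 44.2 RPKM under the Asic3-null label, or 37.2% of the WT mean.

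**Figure D3:**
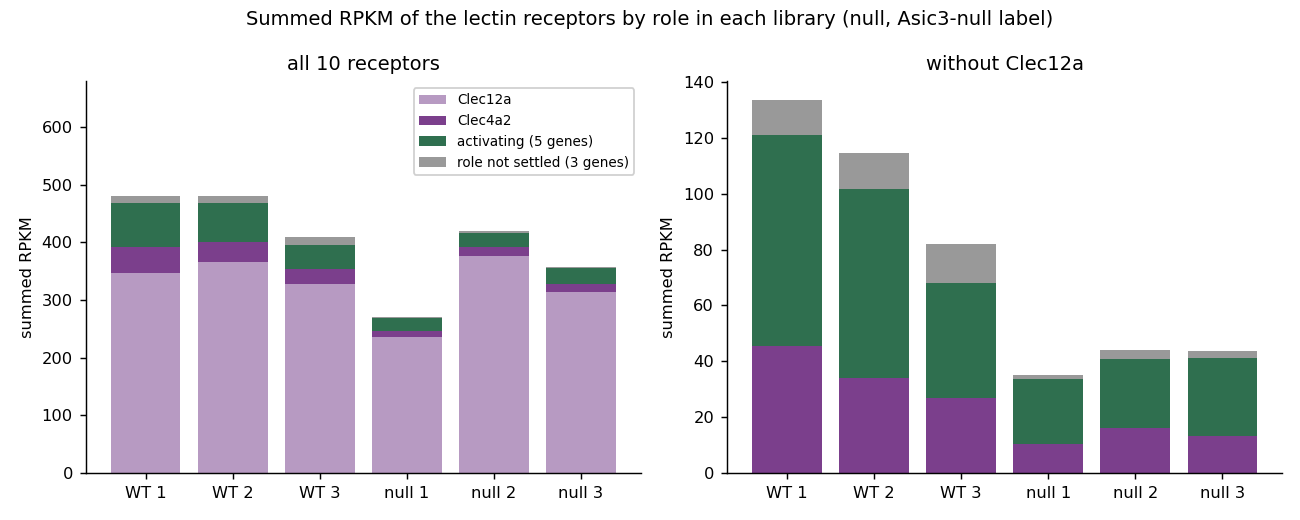
Summed RPKM of the receptors by role in each library (left, all 10; right, without Clec12a; both axes from 0). Clec12a fills 72.2 to 89.5% of each bar on the left, and on the right the 3 bars under the Asic3-null label reach at most 44.2 RPKM while those under the WT label start at 82.1 RPKM.

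All of the receptors on chromosome 6 other than Clec5a lie in 2 gene clusters, a position that played no part in their choice. The Clec4 cluster spans 368 kb from Clec4a1 to Clec4e and holds 9 listed genes, of which 6 are among the 10 receptors. In 7 of these 9 the libraries labelled Asic3-null lay wholly below those labelled WT. Of the 6 that were tested 5 did so, against 11.4% of all tested genes, and of the 3 under the filter Clec4n and Clec4a4 did. Besides the receptors above these were Clec4a4 and Clec4b2. Clec4a4 had 1.74, 1.41 and 1.16 RPKM under the WT label, from only 4, 3 and 3 reads, and no read under the Asic3-null label. It was at least 3.66-fold lower against a floor of 3 reads over the group. Its limma adjusted p of 0.00881, when no filter was applied, rests on these few reads. Clec4b2 had a log2 fold change of -1.87 that did not pass (limma adjusted p = 0.0751). Clec4d and Clec4b1 overlapped, the latter at 0.584 ± 0.608 and 0.184 ± 0.318 RPKM (SD, n = 3 each). The flanking gene Necap1 had a log2 fold change of -0.11 (limma adjusted p = 0.855), and Vmn2r19 on the other side was at 0 in every library.

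The second cluster spans 123 kb from Clec12a to Clec7a and holds 6 listed genes. Only Clec7a at its end was lower without overlap. Clec12b, Clec1b, Clec9a and Clec1a between them had group means of at most 0.688 RPKM. Olr1, which encodes an oxidized-LDL receptor and lies just past Clec7a, had 9.33, 9.50 and 10.7 RPKM under the WT label and 12.8, 13.3 and 14.8 RPKM under the Asic3-null label, opposite in sign to Clec7a. Its log2 fold change of 0.44 did not pass (limma adjusted p = 0.226). Clec2m on the side of Clec12a had a log2 fold change of 0.12 (limma adjusted p = 0.906).

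**Figure D4:**
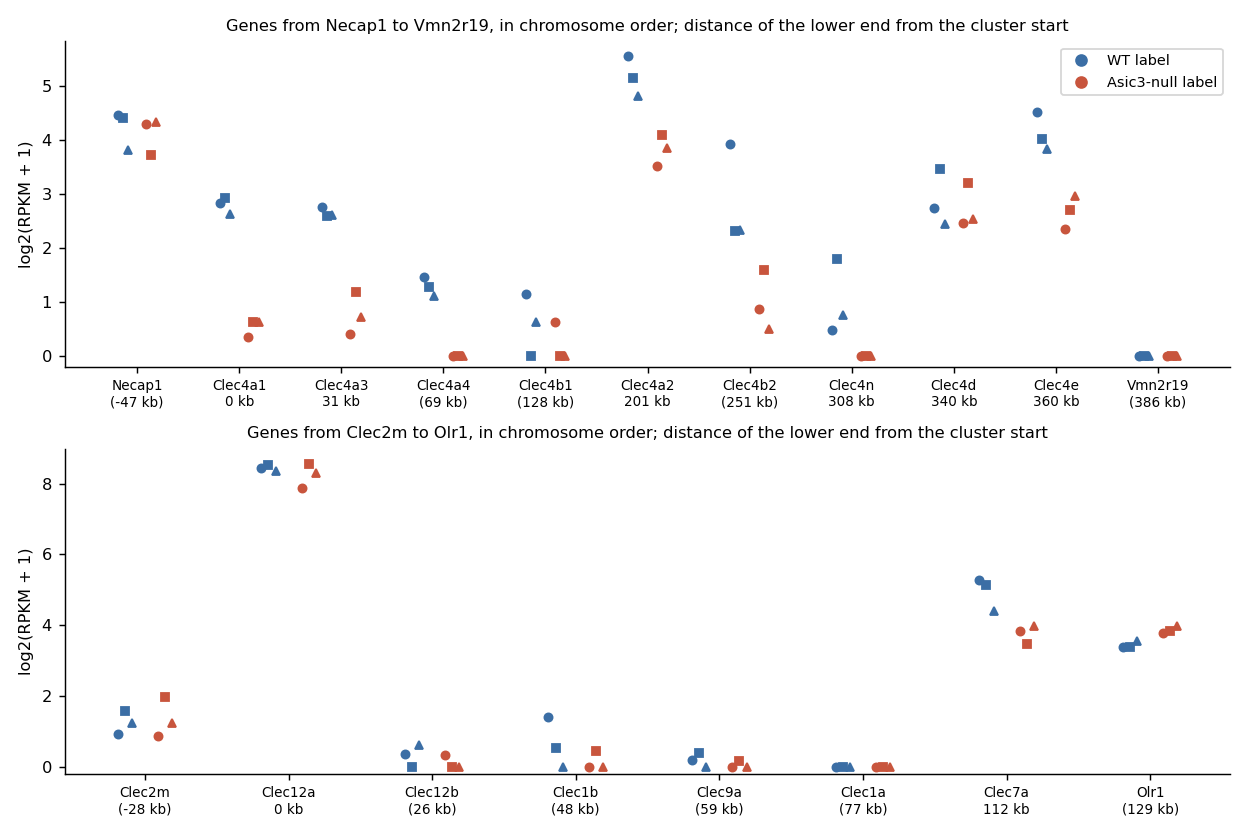
log2(RPKM + 1) of every listed gene of the Clec4 cluster (top) and of the cluster from Clec12a to Clec7a (bottom), with the nearest gene on either side, in chromosome order and evenly spaced. Distances in kb are from the start of the first receptor of each cluster, those of genes outside the 10 receptors are in brackets, and points are the 3 libraries of each label. In the top panel 7 of the 9 genes inside the cluster are lower under the Asic3-null label without overlap, and in the bottom panel 1 of 6.

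The mRNAs of the proteins that carry the activating signal were compared in the same fit. Of 22 genes of ITAM signalling 21 were tested, and 4 fell and none rose, beside 2.82% lower and 0.523% higher among all tested genes, with a median log2 fold change of -0.17. The count was 1 without the intensity trend and 1 to 2 with 1 library left out (2 only without WT replicate 3). Fcer1g, which encodes FcRγ, the adaptor of Mincle, MCL and Dectin-2, had 551, 520 and 459 RPKM under the WT label and 317, 309 and 348 RPKM under the Asic3-null label, a log2 fold change of -0.65 (standard error 0.12, limma adjusted p = 0.0198). Fgr and Lyn, which also fell, encode Src-family kinases that phosphorylate such motifs. Fgr had 15.0, 9.80 and 7.18 RPKM under the WT label and 1.03, 1.63 and 1.14 RPKM under the Asic3-null label, with a log2 fold change of -2.32 (limma adjusted p = 0.00302). Lyn had a log2 fold change of -0.77 (limma adjusted p = 0.0287).

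The second adaptor and the downstream steps did not pass. Tyrobp, which encodes DAP12, the adaptor of MDL-1, was at 1321 ± 119 and 939 ± 97.4 RPKM (SD, n = 3 each), with no overlap but a log2 fold change of -0.49 that did not pass (limma adjusted p = 0.0710). Syk had a log2 fold change of -0.20 (limma adjusted p = 0.506) and Card9 one of -0.17 (limma adjusted p = 0.708), and both overlapped between groups. Fgr passed in all 15 alternatives, Fcer1g in 8, Lyn in 7 and Tyrobp in 2, limma-voom with TMM among them (adjusted p = 0.0440). These adaptors and kinases also serve Fc receptors and integrins.

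None of the 12 genes of ITIM signalling passed in limma, with a median log2 fold change of -0.27, and none passed with limma-voom. An unadjusted p under 0.05 was found for 4, a count with no share over all tested genes to set it against. Groups were lower without overlap for 5, as for 11.4% of all tested genes. Ptpn6, which encodes SHP-1, was at 190 ± 12.7 RPKM under the WT label and 142 ± 19.0 RPKM under the Asic3-null label (SD, n = 3 each; log2 fold change -0.43, limma adjusted p = 0.153). Ptpn11, which encodes SHP-2, had a log2 fold change of 0.12 (limma adjusted p = 0.758) and Inpp5d, which encodes the lipid phosphatase SHIP1, one of -0.16 (limma adjusted p = 0.690). The lowest p-values belonged to the adaptor Dok3 at -0.49 (limma adjusted p = 0.125), to Ptpn6 and to the Csk-binding adaptor Pag1 at -0.61 (limma adjusted p = 0.200).

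Of 18 cytokines, chemokines and other genes known to respond to these receptors, 10 were tested and 1 passed, where 3.35% of all tested genes passed in either direction. Ccl2, the monocyte chemoattractant, had 26.6, 41.4 and 21.0 RPKM under the WT label and 2.68, 2.60 and 4.23 RPKM under the Asic3-null label, a log2 fold change of -2.84 (standard error 0.27, limma adjusted p = 0.000847). Tnf and Il1b came next by p with log2 fold changes of -1.20 and -1.01 and overlapping groups (limma adjusted p = 0.283 and 0.332), and Il6, Cxcl1 and Csf2 were at 0 in every library. The median of the 10 was 0.34, above the 0.03 of all tested genes.

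The remaining C-type lectins were mostly silent. Of 42 such genes, 17 were at 0 in every library, among them all 7 Cd209 genes listed, and 12 were tested. None passed in limma, with a median log2 fold change of -0.21, and none passed with limma-voom, while 1 gene passed without a filter (Clec4a4) and 1 with median-ratio scaling (Cd302). Of the 12, 6 had an unadjusted p under 0.05, a count with no share over all tested genes to set it against. Without overlap 5 of the 12 were lower and 1 was higher, as 11.4% and 11.2% of all tested genes were. Among those with the lowest p-values were Cd302 (-1.05, limma adjusted p = 0.0553) and Clec4b2, each lower without overlap.

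**Figure D5:**
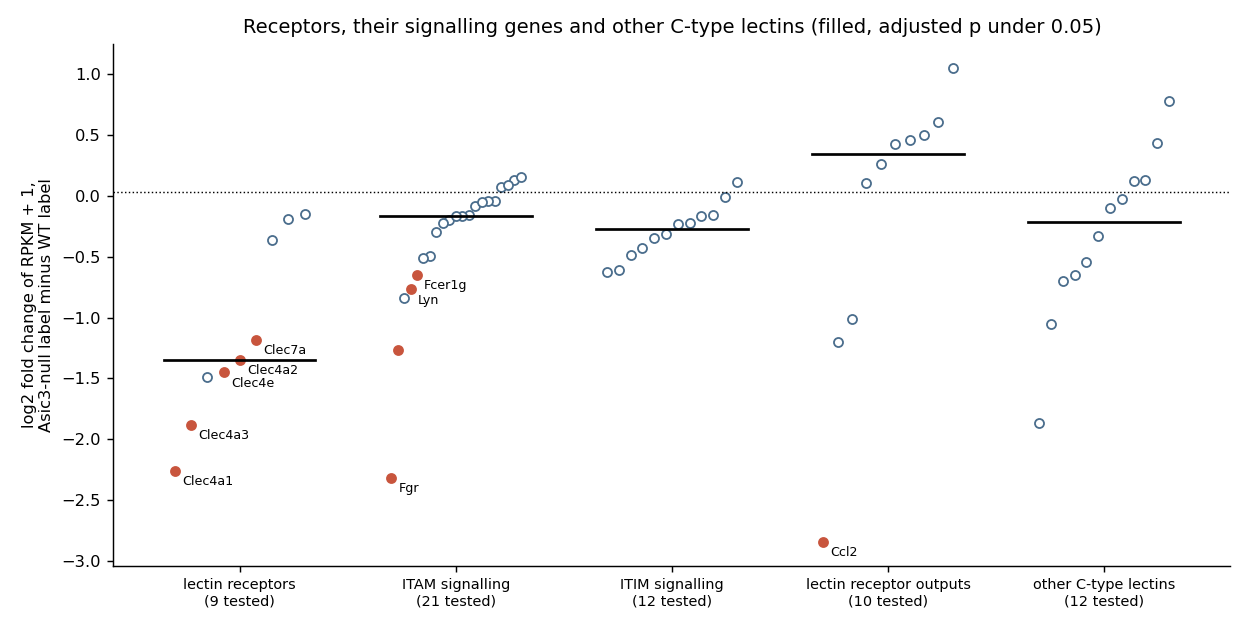
Fitted log2 fold change (Asic3-null label minus WT label, RPKM + 1) of each tested gene in 5 lists, with the genes of a list spread along the x axis by rank. Filled points passed an adjusted p of 0.05, bars are list medians and the dotted line is the median of all tested genes. The points named are the 5 receptors, 3 of the ITAM signalling genes and Ccl2, all below 0.

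The genes most alike to the receptors were sought by correlating log2(RPKM + 1) over the 6 libraries with the mean of the 9 tested receptors, each centred on its own mean. The 5 highest were Ms4a6c (Pearson r = 0.998), Padi2 (0.997), Ncf4 (0.995), Rnase6 (0.995) and Chil4 (0.993). Ms4a6c is a monocyte surface protein, Ncf4 a subunit of the phagocyte NADPH oxidase, and Chil4 a chitinase-like protein. Rnase6 had 13.2 RPKM under the WT label and 1.32 RPKM under the Asic3-null label on average. All points come from the same 6 libraries, which fall into the 2 labels, so these values describe a shared profile only.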

How the data were processed

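Total RNA of sorted LICs was measured in 6 libraries, 3 per label, and groups follow the labels. Per the submitters' processing notes, CASAVA 1.8.2, TopHat2 2.0.12 and GRCm38 were used. The counting tool and annotation are not given in the sources used here. The authors deposited 1 table of RPKM per gene, scaled by gene length and library size. Every one of the 16825 genes with a value above 0 could be turned back into whole reads (tolerance 1e-05), which made up 99.6% of the inferred library size. Symbols and positions came from RefSeq (25275 of 27179 genes matched).

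The members, lists and tests were chosen with earlier results of these data known, so the counts are descriptions. Genes with a mean of at least 1 RPKM (12037) were compared as log2(RPKM + 1) by limma (version 3.58.1, R 4.3.3) with an intensity trend and no covariate, two-sided, at a Benjamini-Hochberg adjusted p of 0.05, after the step was tested on simulated data. There it recovered 11.9% of 1.5-fold, 53.7% of 2-fold and 87.9% of 4-fold changes, with 13 false calls. With no gene changed it made 3 calls. Changes of 1.5-fold were thus mostly missed, so not passing does not show that a gene was unchanged. Single values were compared by exact permutation. Fold changes on this scale understate the change of low genes. Lists covered ITAM and ITIM signalling, receptor outputs, other C-type lectins and markers of 8 cell types. Named were all receptors, Asic3, fixed adaptors and phosphatases, the 3 lowest p of each list, genes in the clusters, defining markers and the 5 most similar genes. Itgam, Xist, Spi1, Cebpa, Cebpe, Cd79b, Meis1, Gata2, Elane, H2-Ab1 and the genes flanking the clusters were named after their values were seen, and a few items under the rule are not reported here. Alternatives were a pseudocount of 0.1, no filter or at least 5 RPKM, median-ratio and quantile scaling, no trend, a replicate block, each library left out, and limma-voom on the recovered reads with and without TMM.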

Additional observations from a re-analysis of the deposited data

How the results depend on the processing

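Of the 9 tested receptors, Clec12a, Clec4a1 and Clec4a3 kept direction and side of the threshold in every alternative run. Clec4e lost its call in 4 of 15 alternatives, Clec4a2 in 4 and Clec7a in 8, Clec5a gained one in 2 of 14, Clec4d reversed to 0.14 without WT replicate 2 (range -0.38 to 0.14 with 1 library left out) and Clec10a to 0.013 without WT replicate 3 (-0.61 to 0.013). The number of receptors called, 5 in the report, was 3 with at least 5 RPKM, where only 5 were tested, and 2 to 6 with 1 library left out. Of 55 tested genes in the signalling, output and other lectin lists, 5 were called, against 2 without the intensity trend and 2 to 3 with 1 library left out. Over all genes 403 were called, against 172 to 258 with 1 library left out, which also leaves fewer samples, and 577 with limma-voom and TMM. The log2 ratio of activating to inhibitory sums differed between labels by -0.96, and by -1.17 to -0.79 with 1 library left out.

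Libraries with the same replicate number did not deviate together (correlations 0.06, -0.06 and -0.12), so the numbers do not pair them. With the replicate number as a block, 246 genes, 3 receptors and 2 list genes were called, and the cause of the loss was not tested. Depth limits Clec4n, Clec4a1, Clec4a3 and Clec10a most, since each had fewer than 21 reads in every library.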

Other observations

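Levels of the factors whose motifs were searched were read from the same table, a choice made after their values were seen. Spi1, which encodes PU.1, had 410 ± 31.7 RPKM under the WT label and 314 ± 21.5 RPKM under the Asic3-null label (SD, n = 3 each), with a log2 fold change of -0.38 and groups that did not overlap (limma adjusted p = 0.136). Cebpa had 130 ± 17.4 and 105 ± 12.3 RPKM (SD, n = 3 each) with overlapping groups and a log2 fold change of -0.31 (limma adjusted p = 0.344). Cebpe, a C/EBP factor of granulocyte maturation, ran the other way, with 65.6 ± 8.66 and 86.6 ± 8.88 RPKM (SD, n = 3 each) and a log2 fold change of 0.40 (limma adjusted p = 0.222). Its groups did not overlap either. Of all tested genes, 11.4% were lower and 11.2% higher without overlap. None of the 3 passed the threshold.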
